A study of Mus musculus with 145 samples.

Results

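Transcript levels of 7 genes that bind metals or buffer redox reactions, Mt1, Mt2, Slc30a1, Atox1, Gpx4, Txn1 and Prdx1, were followed during the reprogramming of mouse spermatogonial stem cells (SSCs). The genes were taken by name, all 7 were found among the 24615 genes of the STRT-seq table and the 15426 genes listed in both scTrio-seq2 RNA tables, and all 7 passed the filter on low counts in every comparison. They were chosen by their measured levels in cells treated with 5C and with DMSO and in the annotated clusters of cells, so their values in those contrasts are a description and carry no test. Their change with the day of culture inside the SSC clusters was not one of those contrasts and was tested, with earlier results of these data known.

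The study cultured SSCs and followed their conversion to germline pluripotent stem cells (gPSCs), counting transcripts of single cells with unique molecular identifiers (UMIs, tags that let copies of the same molecule be counted once). All SSCs came from F1 male pups in the first week after birth, born to C57BL/6 mothers with an Oct4-EGFP or EGFP transgene and DBA/2 fathers, were grown in StemPro-34 with EGF, bFGF, GDNF and ESGRO, and SSC-like and PSC-like colonies were selected before single cells were taken. Modified STRT-seq covered 46 libraries in the original condition, with no 5C, on days 0 to 27 of culture, holding 4339 cells, and 3 libraries of lines: gPSC-1 at passage 1, gPSC-1 at passage 15, both grown in N2B27 with 2iL, and embryonic stem cells (ESCs). The study's ESCs came from Oct4-EGFP blastocysts of the F1 background of C57BL/6 and DBA/2 and were kept in the same medium as gPSCs. The RNA arm of scTrio-seq2, which reads RNA and DNA of the same cell, covered 8 samples treated with 5C (SGC707, vitamin C, EGCG, daphnetin and TUDCA) with 724 cells and 5 samples given DMSO, the solvent control, with 365 cells. The labels do not say that samples of a group were separate cultures, so their spread may be technical. The names of the cells place the 5C cells on days 12 to 16 and the DMSO cells on days 20 and 24, apart from 8 DMSO cells of day 0, so treatment and day cannot be told apart.

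Metallothioneins are small cysteine-rich proteins that bind zinc and copper, and their genes are switched on by the zinc-sensing factor MTF1. Slc30a1 encodes ZnT1, the zinc exporter of the plasma membrane and another MTF1 target. Atox1 hands copper to the copper pumps of the secretory pathway, Gpx4 is a selenoenzyme that reduces lipid hydroperoxides and holds off ferroptosis, Txn1 is the cytosolic thioredoxin that reduces protein disulfides, and Prdx1 is a peroxiredoxin that removes hydrogen peroxide and is itself reduced by thioredoxin.

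The genes lie on 5 chromosomes of GRCm38 by the GENCODE vM21 annotation. Mt2 (chr8:94172664-94173568) and Mt1 (chr8:94179082-94180327) are neighbours on the plus strand with 5513 bases between them. Slc30a1 is at chr1:191906767-191913247 and Gpx4 at chr10:80047166-80056439, both on the plus strand, and Atox1 is at chr11:55446641-55461239 on the minus strand. Txn1 (chr4:57943373-57956411, minus strand) and Prdx1 (chr4:116685544-116700822, plus strand) share chromosome 4. The annotation also holds the processed copies Txn-ps1 and Gpx4-ps2, which the STRT-seq table does not list, so the counts of Txn1 and Gpx4 are uncertain by any reads shared with them.

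The stretches around the start sites of 4 of the genes are printed because they show the letters usually searched for in metal-responsive and oxidant-responsive promoters. Each runs from 250 bases before to 50 bases after the RefSeq start on GRCm38.p6, 5′ to 3′ on the gene's own strand, at chr8:94178839-94179138 for Mt1, chr8:94172368-94172667 for Mt2, chr1:191906531-191906830 for Slc30a1 and chr4:116685349-116685648 for Prdx1. Capitals mark the core of the metal response element, TGCACNC or TGCGCNC on either strand, in the first 3 stretches and the core of the antioxidant response element, TGACNNNGC on either strand, in that of Prdx1.
Mt1: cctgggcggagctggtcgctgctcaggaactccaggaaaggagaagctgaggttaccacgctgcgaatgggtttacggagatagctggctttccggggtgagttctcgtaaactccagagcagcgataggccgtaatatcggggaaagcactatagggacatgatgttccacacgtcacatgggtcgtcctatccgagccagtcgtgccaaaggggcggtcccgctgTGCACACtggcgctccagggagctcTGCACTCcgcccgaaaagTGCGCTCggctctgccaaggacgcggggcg
Mt2: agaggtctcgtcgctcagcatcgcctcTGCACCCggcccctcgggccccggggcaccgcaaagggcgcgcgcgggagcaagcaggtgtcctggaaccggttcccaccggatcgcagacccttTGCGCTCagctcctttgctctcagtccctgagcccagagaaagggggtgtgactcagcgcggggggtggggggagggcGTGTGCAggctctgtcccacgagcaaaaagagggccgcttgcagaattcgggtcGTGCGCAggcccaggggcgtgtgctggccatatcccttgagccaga
Slc30a1: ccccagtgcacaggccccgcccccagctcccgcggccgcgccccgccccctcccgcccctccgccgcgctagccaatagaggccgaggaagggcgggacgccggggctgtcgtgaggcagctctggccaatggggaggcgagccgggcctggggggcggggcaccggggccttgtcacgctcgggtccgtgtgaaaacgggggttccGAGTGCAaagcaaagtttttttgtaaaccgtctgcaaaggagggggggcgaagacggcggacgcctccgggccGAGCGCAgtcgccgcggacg
Prdx1: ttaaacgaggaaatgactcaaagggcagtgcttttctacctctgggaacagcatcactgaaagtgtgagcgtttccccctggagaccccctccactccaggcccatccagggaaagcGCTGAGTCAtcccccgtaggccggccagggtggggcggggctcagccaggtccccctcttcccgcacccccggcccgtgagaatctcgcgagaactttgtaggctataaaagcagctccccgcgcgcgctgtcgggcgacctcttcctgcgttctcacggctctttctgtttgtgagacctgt

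The metal response core occurred 3 times in the Mt1 window, 4 times in the Mt2 window and 2 times in the Slc30a1 window, and in none of the windows of the other 4 genes. Of 32851 windows of the same length, 25.7% held at least 1 such core, 7.11% at least 2, 1.97% at least 3 and 0.518% at least 4. The antioxidant response core, present in 12.4% of all windows, occurred once each in the windows of Mt2, Slc30a1, Atox1 and Prdx1. No match overlapped another, and a match is a run of letters, not a site that was measured.

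Levels are given as CPM, the UMIs of a gene in a sum of cells relative to all UMIs of that sum, scaled by the trimmed mean of M-values (TMM), and are compared within a gene, since UMI totals of different genes also depend on how well each transcript is captured. scTrio-seq2 cells were divided at a Dazl level of 400 CPM, Dazl being a germ cell gene, into Dazl-high cells (566 of 5C, 206 of DMSO) and Dazl-low cells (158 and 159), with 67 and 24 cells between 200 and 800. Sums needed 5 cells or more and held 497395 to 10714391 UMIs, and STRT-seq libraries of the original condition held 15975410 to 34609591 UMIs. The 96 barcode positions were all used in more than 1 STRT-seq library, and no 2 cells had identical counts. Markers followed the split: 6 SSC genes summed to 1670 to 2212 CPM in Dazl-high 5C cells, 434 to 603 in Dazl-low 5C cells and 344.5 to 382 in Dazl-low DMSO cells, whereas 6 pluripotency genes summed to 2025 to 3150 in Dazl-low 5C cells and 3526 to 3598 in Dazl-low DMSO cells. Markers of the fibroblast feeder were low in all of these sums, 7.67 to 71.7 over the 10 of 12 that were measured.

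The first question was whether the genes differed with treatment in cells that kept Dazl. Both metallothioneins were lower on average in 5C than in DMSO, Prdx1 and Atox1 were also lower, and the mean levels of Gpx4, Txn1 and Slc30a1 were somewhat higher. Mt1 stood at 1849, 1830.45, 1791, 1016 and 1164 CPM in DMSO replicates 1 to 5 and between 419 and 1119 in the 8 samples of 5C, with a median of 959. The ranges overlapped, and the means were 1530.05 ± 406 (SD, n = 5) and 934 ± 227 (SD, n = 8), a fitted log2 difference of −0.71 for 5C against DMSO. Mt2, its neighbour, was at 1107, 1165, 1296, 677 and 696 in DMSO and between 283 and 636 in 5C, with a median of 599.8. Every 5C sample was thus below every DMSO sample, with means of 559 ± 115 (SD, n = 8) and 988 ± 284 (SD, n = 5) and a log2 difference of −0.82. Mt2 was the only one of the 7 genes whose groups lay apart in Dazl-high cells. Of all genes tested in this comparison, 3.9% lay apart with 5C lower and 5.62% with 5C higher. The lowest 5C value of both metallothioneins came from replicate 1.

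The other 5 genes overlapped between treatments in Dazl-high cells, and DMSO replicates 1 and 2 stood away from the other DMSO samples. Their Dazl-high sums held only 8 and 13 cells, against 34 to 91 in the other sums. For Gpx4 and Txn1 the overlap came from these 2 sums alone, and how many of all genes did likewise was not counted. Atox1 was at 849, 696, 412, 216 and 175 CPM in DMSO replicates 1 to 5, against 158 to 305 with a median of 208 in 5C. Gpx4 was at 472, 433, 179, 135 and 129 in DMSO and 239 to 424, with a median of 282, in 5C. Txn1 showed the same order of samples, 782, 695, 273, 214 and 197 in DMSO, against 372 to 654 with a median of 484 in 5C. Those 2 DMSO samples were mostly made of Dazl-low cells, and pluripotency markers summed to 482 and 705 in their Dazl-high cells, against 165 to 488 in DMSO replicates 3 to 5 and 94.8 to 1025 in the Dazl-high cells of 5C. The part of these cells in the results was not tested. Without both samples the log2 difference moved from 0.25 to 1.03 for Gpx4, from 0.24 to 1.09 for Txn1, from −1.12 to −0.37 for Atox1 and from 0.41 to 0.05 for Slc30a1, while Mt1 (−0.52), Mt2 (−0.69) and Prdx1 (−0.25) stayed below 0. Prdx1 was at 2647, 2855, 2043, 1857 and 2251 in DMSO and 1365 to 2109 in 5C, with a median of 1819. Slc30a1 was at 8.11, 9.35, 23.5, 39.5 and 26.3 in DMSO, the first 2 values from 4 and 7 UMIs, and 18.1 to 53.4 in 5C with a median of 27.2.

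In Dazl-low cells the 2 DMSO samples that held them lay far from the 6 samples of 5C for every one of the 7 genes. Mt1, Mt2, Atox1, Gpx4, Txn1 and Prdx1 were lower in 5C and Slc30a1 was higher. Mt1 was at 3899 and 3345 CPM in DMSO replicates 1 and 2 and between 264 and 578 in 5C, with a median of 447. The means were 3622 ± 392 (SD, n = 2) and 424 ± 110.0 (SD, n = 6), a fitted level 8.66-fold lower in 5C. By their cell names both DMSO samples are of day 20 and differ only in the last index, so they may come from 1 culture. Mt2 was at 2634 and 2396 in DMSO and between 146 and 595 in 5C, with a median of 334, which is 7.80-fold lower. Slc30a1, the zinc exporter, went the other way, at 4.75 and 1.804 in DMSO from 19 and 8 UMIs, and between 10.1 and 39.7 in 5C, with a median of 25.4 and 6.95-fold higher in the fit. That log2 difference, 2.797, rested on few UMIs in DMSO, and it was 3.64 without DMSO replicate 1 and 2.26 without DMSO replicate 2. Scaled by total UMIs alone the folds were 6.34, 5.71 and 9.52 for Mt1, Mt2 and Slc30a1, so the order of the gaps depends on the scale. Mtf1, the factor that senses zinc, was at 26.6 ± 3.26 (SD, n = 2) in DMSO and 25.1 ± 2.95 (SD, n = 6) in 5C, with overlapping ranges. Dazl itself averaged 155 ± 46.5 in the Dazl-low 5C cells and 30.8 ± 7.48 in the Dazl-low DMSO cells, and its part in these values was not tested.

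The 4 redox and copper genes were also lower in 5C, by less than the metallothioneins. Atox1 was at 1694 and 1714 CPM in Dazl-low DMSO cells and between 475 and 703 in 5C, with a median of 509.8 and a log2 difference of −1.66. Gpx4 was at 1186 and 1473 against 399 to 619.7, with a median of 561 and a log2 difference of −1.34. Txn1 was at 2391 and 2259.8 against 894 to 1234, with a median of 1070.0 and a log2 difference of −1.14. Prdx1, which thioredoxin reduces, was at 3609 and 3194 against 1669.8 to 2126, with a median of 1791 and a log2 difference of −0.92. Groups lay apart with 5C lower for 17.8% of all genes tested in Dazl-low cells and with 5C higher for 14.6%. The 7 genes together made up 1.02% and 1.05% of all UMIs in Dazl-low DMSO cells and 0.393% to 0.493% in Dazl-low 5C cells.

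Transcripts of ribosomal protein genes took 16.1% to 17.5% of UMIs in Dazl-low DMSO cells and 11.3% to 12.8% in Dazl-low 5C cells, and TMM factors were 0.684 to 0.710 and 0.902 to 0.955. Scaled by total UMIs alone, the median of all genes tested moved from 0.08 to 0.53 on the log2 scale, and the members kept their directions, from −2.66 for Mt1 to 3.25 for Slc30a1 and −0.48 for Prdx1. With the split at 800 CPM of Dazl, which also changes the cells compared, the 7 directions stayed and the log2 difference was −2.24 ± 0.35 (SE) for Mt1, −2.20 ± 0.39 for Mt2 and 1.05 ± 0.63 for Slc30a1. The other genes moved with that split to −1.18 ± 0.49 for Atox1, −0.76 ± 0.59 for Gpx4, −0.57 ± 0.62 for Txn1 and −0.61 ± 0.20 for Prdx1, so Atox1 then had a wider gap than Slc30a1.

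**Figure D1:**
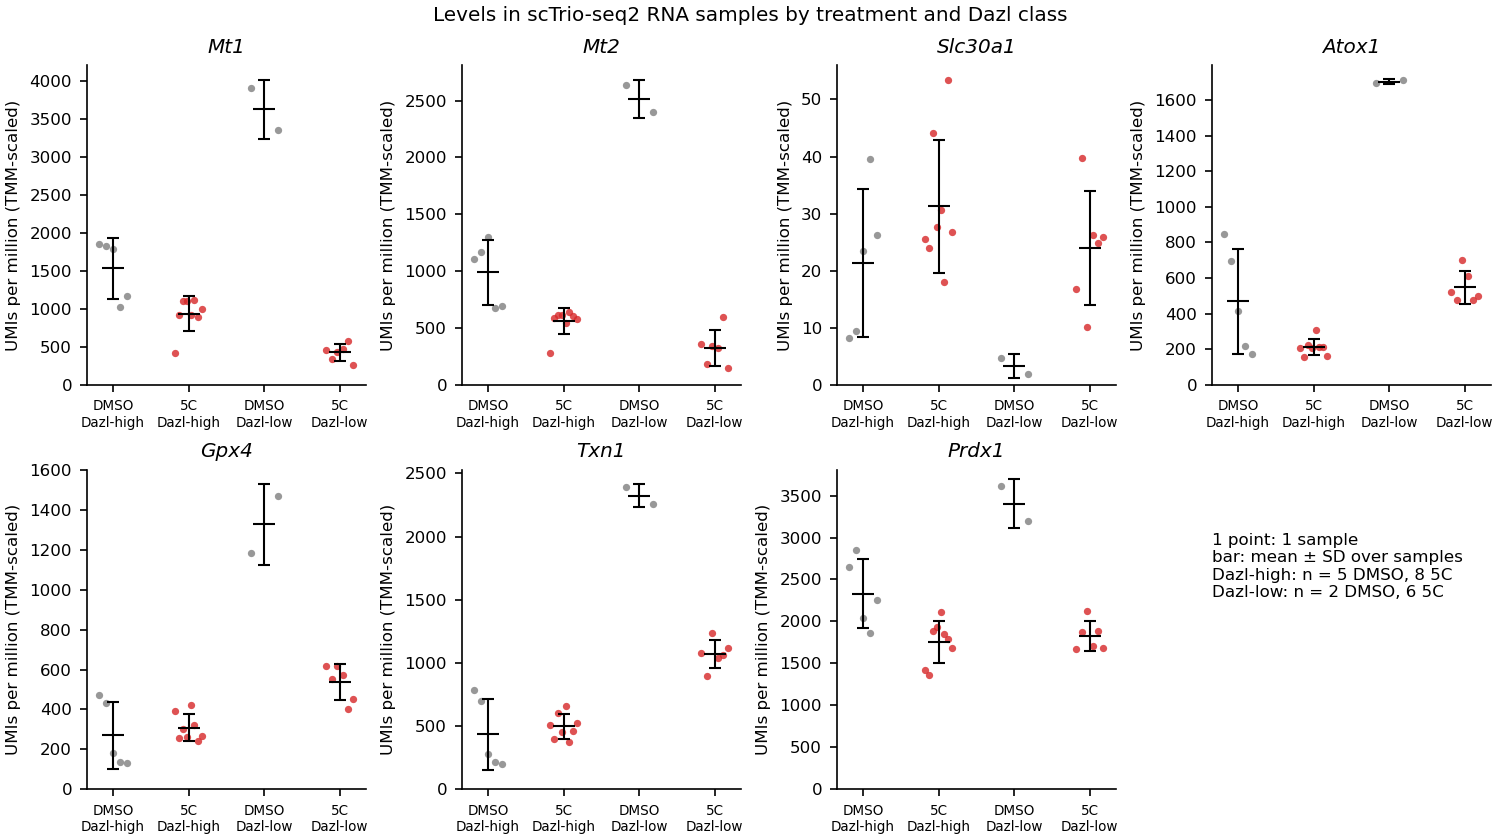
Level of each of the 7 genes (vertical axis, TMM-scaled CPM, from 0) in scTrio-seq2 samples by treatment and Dazl class (horizontal axis). Points are samples, and bars are the mean and SD over 5 DMSO and 8 5C samples (Dazl-high) or 2 and 6 (Dazl-low). In Dazl-low cells both DMSO points lie above all 5C points, 3345 and 3899 against at most 578 for Mt1, except for Slc30a1, where they lie below.

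Within a sample, most 5C samples had less Mt1 and Mt2 in Dazl-low than in Dazl-high cells, and all had more Atox1, Gpx4 and Txn1. Of DMSO, only replicates 1 and 2 held enough cells of each class, with 8 and 13 Dazl-high cells. In both, Mt1 was higher in Dazl-low than in Dazl-high cells, by 0.87 and 1.08 on the log2 scale, and Mt2 by 1.04 and 1.25. In 5C, Mt1 was higher in Dazl-low cells of only 1 of 6 samples, with a median of −1.17 and a range of −1.91 to 0.14, and Mt2 likewise in 1 of 6, with a median of −0.82. The groups did not overlap for either gene, with 5C lower, as for 15.2% of all genes, and 7.37% did not overlap with 5C higher. Atox1, Gpx4 and Txn1 were higher in Dazl-low cells of 6 of 6 5C samples (medians 1.27, 0.75 and 1.09) and of both DMSO samples (medians 1.15, 1.55 and 1.66). Gpx4 (1.33 and 1.76 in DMSO, 0.54 to 0.88 in 5C) and Txn1 (1.61 and 1.70 in DMSO, 0.58 to 1.48 in 5C) did not overlap either, with 5C lower, whereas Atox1, Slc30a1 and Prdx1 did. Slc30a1 was lower in Dazl-low cells of both DMSO samples and of 5 of 6 5C samples (median −0.37). Prdx1 differed little between the classes, with medians of 0.30 in DMSO and 0.01 in 5C.

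The rest of the metal and redox pathways was read from 6 lists of 110 genes that leave out the members: zinc and metallothionein, copper, thioredoxin and peroxiredoxin, glutathione and lipid peroxides, NRF2 with superoxide and NADPH, and selenoprotein synthesis. A gene was called at an adjusted p below 0.05 by edgeR's quasi-likelihood test with Benjamini-Hochberg adjustment over all genes tested. In Dazl-high cells 12 of 99 tested list genes were higher in 5C and 12 were lower, each 12.1%, against 12.2% and 11.5% of all genes, so their share was near the background. Scaled by total UMIs alone there were 15 higher and 8 lower, and without DMSO replicates 1 and 2 there were 20 and 14. The matching counts of all genes are not given here. With all cells and no Dazl split there were 6 and 4, beside 978 and 950 of 12997 genes in all. The median log2 difference was −0.08 over these genes and 0.02 over all genes.

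In Dazl-high cells the zinc list held 4 genes that were higher and 1 that was lower of 20 tested. Slc39a13, a zinc transporter of the ZIP family, was at 28.2 CPM in 5C and 7.76 in DMSO (log2 difference 1.94 ± 0.35 SE, adjusted p = 5.65e-04), and Slc39a14, another ZIP transporter, differed by 0.98 ± 0.30 (adjusted p = 0.0215). Slc30a2, a vesicular zinc exporter, was lower, at 16.1 against 51.4 (−1.63 ± 0.28, adjusted p = 3.11e-04). Of 18 thioredoxin and peroxiredoxin genes 2 were higher and 3 lower. They included Srxn1, the sulfiredoxin that repairs over-oxidised peroxiredoxins, at 1.59 ± 0.36 (adjusted p = 0.00324), and Prdx6, at −0.96 ± 0.18 (adjusted p = 8.79e-04). Txndc12, a thioredoxin-like protein of the endoplasmic reticulum, was higher by 0.43 ± 0.15 (adjusted p = 0.0476), and Msrb1, a methionine sulfoxide reductase, differed by −0.87 ± 0.29 (adjusted p = 0.0326). The glutathione list gave 4 in each direction of 25, among them the glutathione peroxidases Gpx8 (2.05 ± 0.55, adjusted p = 0.00958) and Gpx3 (1.73 ± 0.38, adjusted p = 0.00264) and the microsomal transferases Mgst3 (−1.91 ± 0.22, adjusted p = 7.39e-06) and Mgst2 (−1.69 ± 0.42, adjusted p = 0.00622). Of 18 NRF2, superoxide and NADPH genes 1 was higher, the NRF2 partner Mafg (0.74 ± 0.18, adjusted p = 0.00475), and 3 were lower, with Hmox1, the inducible heme oxygenase, at −0.73 ± 0.24 (adjusted p = 0.0338) and Taldo1, of the pentose phosphate pathway, at −0.62 ± 0.093 (adjusted p = 1.09e-04). Commd1, a copper homeostasis gene, was the single copper gene called of 11 (−0.44 ± 0.13, adjusted p = 0.0179), and Sephs1 the single one of 7 for selenoprotein synthesis (1.21 ± 0.29, adjusted p = 0.00501).

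In Dazl-low cells 2 of 96 tested list genes were higher in 5C (2.08%) and 19 were lower (19.8%), against 6.86% and 9.93% of all genes, with a median log2 difference of −0.13 over the list genes and 0.08 over all genes. The counts changed with the scale: scaled by total UMIs alone, 7 were higher and 6 lower, while of all genes more were then called higher than lower. List counts also fell when either DMSO sample was left out, but the lone DMSO sample was then assumed to vary like the 5C samples. With the split at 800 CPM of Dazl, 0 list genes and 4 genes in all were called, 1363 of the table having an unadjusted p below 0.05 by edgeR. The lower genes were 8 of 23 in the glutathione list, 6 of 17 in the NRF2, superoxide and NADPH list, 3 of 18 in the thioredoxin list and 1 each in the copper and zinc lists. Blvrb, a biliverdin reductase, was at 51.3 CPM in 5C and 295 in DMSO (−2.51 ± 0.32, adjusted p = 8.96e-05), and Ftl1, the ferritin light chain that stores iron, at 3257 and 6579 (−1.04 ± 0.12, adjusted p = 3.26e-05). Glrx, a glutaredoxin, differed by −2.14 ± 0.48 (adjusted p = 0.00683) and Gsto1, an omega-class glutathione transferase, by −1.75 ± 0.29 (adjusted p = 8.32e-04). Prdx6 was lower here too, at 265 against 632 (−1.27 ± 0.14, adjusted p = 2.14e-05), as were Prdx5 (−0.80 ± 0.20, adjusted p = 0.0110) and Commd1 (−0.82 ± 0.19, adjusted p = 0.00900). In the zinc list Slc39a14 was higher, at 82.5 against 23.2 (1.796 ± 0.37, adjusted p = 0.00403), as was Slc39a7, a zinc transporter of the endoplasmic reticulum (0.83 ± 0.27, adjusted p = 0.0495), and Slc39a4, a zinc importer of the plasma membrane, was lower (−1.43 ± 0.37, adjusted p = 0.0154).

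In the original condition the question was how the genes stood in the 4 clusters annotated as reprogramming cells, RPG1 to RPG4, beside SSC1 to SSC4 cells of 36 libraries. The metallothioneins were lowest in RPG2 and RPG4, and the means of Atox1, Gpx4 and Txn1 over all sums were highest in RPG3. The libraries came from 2 batches, B1 and B2, and within B2 alone Gpx4 was not highest in RPG3. Mt1 averaged 842 ± 201 CPM in SSC1-4 (SD, n = 36, 533 to 1465), 867 ± 146 in RPG1 (n = 7), 644 ± 215 in RPG3 (n = 8, 369.9 to 902), 297 and 443 in the 2 libraries of RPG4, and 215, 240.3 and 327 in the 3 libraries of RPG2. Neither RPG2 nor RPG4 overlapped the SSC1-4 range of Mt1, and of all genes 3.29% lay below the SSC1-4 range in RPG2 (5.1% above) and 5.49% in RPG4 (7.52% above). Mt2 ran in parallel, at 595 ± 122 in SSC1-4 (305 to 861), 605 ± 92.3 in RPG1, 464 ± 162 in RPG3, 164 and 334 in RPG4 and 137, 239 and 261 in RPG2. The fitted log2 difference from SSC1-4 was −1.69 for Mt1 and −1.48 for Mt2 in RPG2 and −1.19 and −1.26 in RPG4. The RPG4 values rest on 2 libraries and were −1.45 and −1.81 without day 20 replicate 1, −0.93 and −0.83 without day 20 replicate 2 and −1.48 and −1.84 with at least 10 cells per sum.

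The zinc exporter had an order of its own. Slc30a1 was at 24.7, 33.3 and 91.6 CPM in RPG2, where the highest value came from 8 cells of day 12, against a median of 14.7 in SSC1-4 (6.43 to 107). In RPG3 it ranged from 1.47 to 25.3 with a median of 4.75, and in RPG4 it was at 23.2 and 1.54, the latter from 8 UMIs. The high end of SSC1-4 was 1 day 16 library, whose sum of 8 cells held 43 Slc30a1 UMIs.

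Atox1, Gpx4 and Txn1 shared an order of means over both batches, from SSC1-4 over RPG1, RPG4 and RPG2 to RPG3. For Gpx4 the last step rests on the B1 sums of RPG3 (mean 612, n = 5). Within B2, which held all RPG2 sums, Gpx4 averaged 424 in RPG3 (n = 3) and 469 in RPG2 (n = 3). Atox1 averaged 331 ± 65.4 CPM in SSC1-4 (105 to 473), 379 ± 74.99 for RPG1, 565 ± 160.3 for RPG2 and 701 ± 123 for RPG3 (536 to 859), and stood at 434 and 482 in RPG4. All 8 RPG3 sums lay above all SSC1-4 sums of Atox1, as for 4.05% of all genes, with 2.02% below. Gpx4 averaged 254 ± 45.5 in SSC1-4 (79.4 to 329), 258 ± 41.8 for RPG1, 469 ± 160.4 for RPG2 and 541 ± 145 for RPG3, and stood at 337 and 429 in RPG4, both above the SSC1-4 range, as for 7.52% of all genes. Txn1 averaged 341 ± 82.4 in SSC1-4 (124 to 604), 480.3 ± 93.7 for RPG1, 674 ± 148 for RPG2 and 786 ± 124 for RPG3 (591 to 961), and stood at 536 and 638 in RPG4. Prdx1 showed little of this order, with means of 1241 ± 309 in SSC1-4, 1165 ± 162 for RPG1, 1241 ± 349 for RPG2 and 1309 ± 184 for RPG3, and 790.03 and 947 in the 2 RPG4 sums, and its log2 difference in RPG2 and RPG3 (0.00 and 0.08) became −0.17 and −0.12 when sums were scaled by total UMIs alone. Pluripotency markers summed to 2095 to 2358 in RPG2, 1805 to 2271 in RPG3, 945 to 1165 in RPG4 and 172 to 449 in RPG1, against 63.9 to 397 in SSC1-4.

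**Figure D2:**
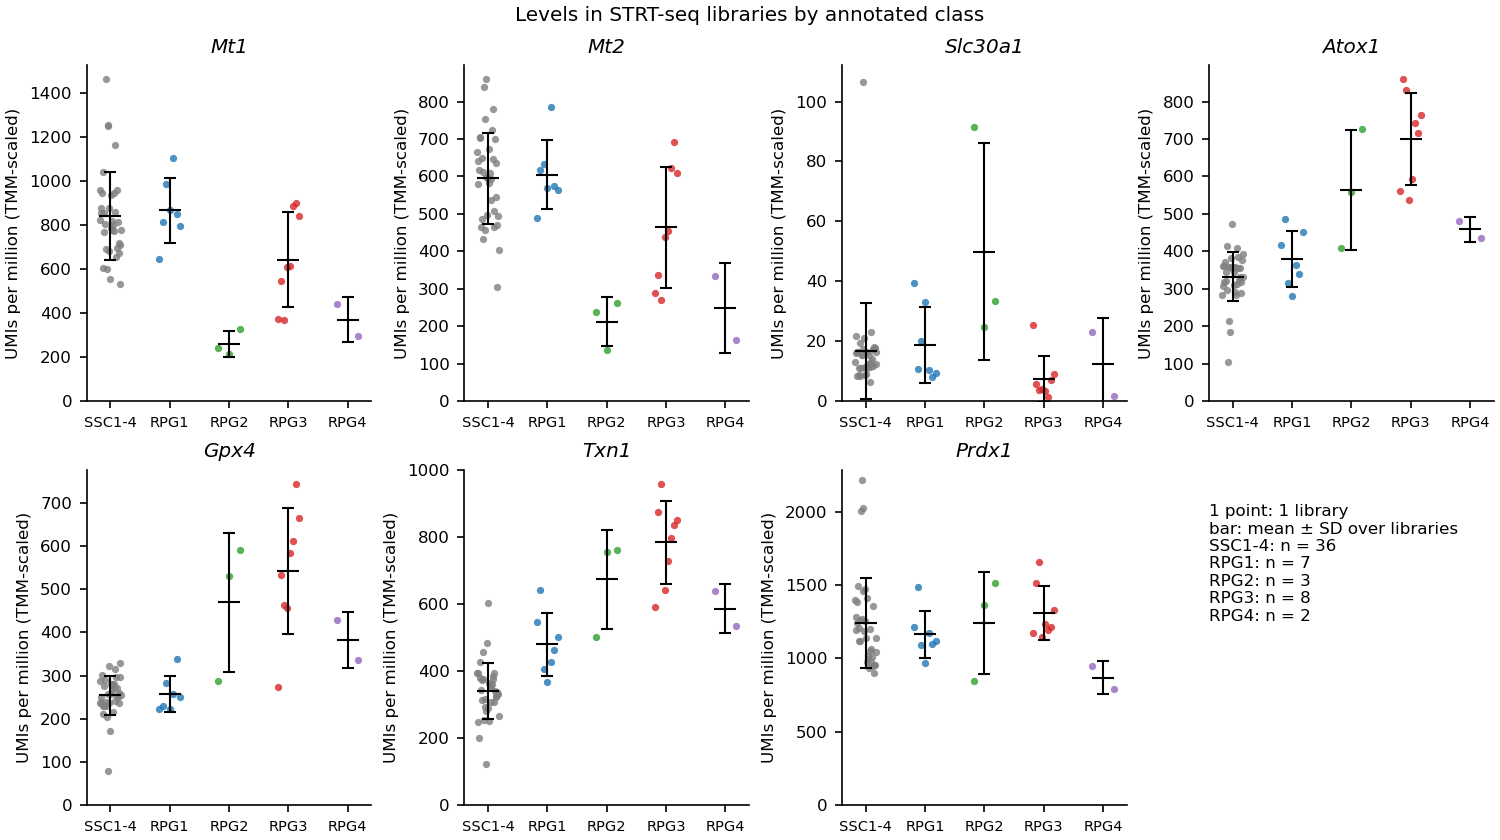
Level of each gene (vertical axis, TMM-scaled CPM, from 0) in STRT-seq libraries of the original condition by annotated class (horizontal axis). Points are sums of 1 class in 1 library, and bars are the mean and SD over libraries, drawn no lower than 0. Mt1 and Mt2 are lowest in RPG2 (Mt1 215 to 327) and RPG4. The means of Atox1, Gpx4 and Txn1 are highest in RPG3 (Atox1 536 to 859), though not for Gpx4 within batch B2 alone.

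Library and batch moved with some of these values. All RPG2 sums came from batch B2 and both RPG4 sums from batch B1, so class and batch cannot be told apart for these classes in the pooled means, but SSC1-4 sums were found in both batches, at 864 (B1, n = 29) and 752 (B2, n = 7) for Mt1. In the 2 libraries with RPG2 and SSC1-4 sums, the log2 difference of RPG2 was −1.83 and −1.30 for Mt1, −1.83 and −1.23 for Mt2 and 1.44 and 0.76 for Slc30a1, day 14 replicate 5 first and replicate 6 second. In RPG3 the metallothioneins differed between batches, Mt1 averaging 772 ± 146 in B1 (n = 5) and 430.1 ± 101 in B2 (n = 3), and Mt2 563 ± 111 and 299 ± 34.3. All B1 sums of RPG3 were from days 20 and 23 and all B2 sums from days 12 and 18, so batch and day cannot be told apart here. Across the 7 libraries with RPG3 and RPG1 sums, Atox1 was higher in RPG3 in 7 of 7 (median log2 difference 1.03), as were Gpx4 (1.24), Txn1 (0.76) and Prdx1 (0.16), Slc30a1 was lower in 7 of 7 (−2.13), and Mt1 and Mt2 were lower in 5 of 7 (−0.32 and −0.34). The fit of RPG3 against SSC1-4 with library as a block used only the 2 libraries that held both classes. It gave log2 differences of 0.02 for Mt1 and 0.11 for Mt2, against −0.39 and −0.36 in the fit over all sums. The 2 libraries had opposite signs, −0.39 and 0.46 for Mt1 and −0.33 and 0.57 for Mt2, so the effect of the block cannot be read from them. In both libraries with RPG4 and RPG1 sums, Mt1 and Mt2 were lower and Atox1, Gpx4 and Txn1 higher in RPG4.

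The 110 pathway genes in the same clusters are given as counts and levels without p-values, because the clusters were built from these transcriptomes and a call between them is no independent test. RPG1 had 1 list gene higher and 1 lower of 109, each 0.917%, against 2.58% and 2.03% of all genes. RPG2 had 33 higher and 18 lower (30.3% and 16.5%) against 17.5% and 18.5% of all genes, RPG3 had 45 and 25 (41.3% and 22.9%) against 25.2% and 31.5%, and RPG4 had 24 and 21 (22.02% and 19.3%) against 12.6% and 15.1%. The median log2 difference over the list genes was 0.15, 0.28 and 0.10 in RPG2, RPG3 and RPG4, beside −0.52, −0.25 and −0.54 over all genes. Scaled by total UMIs alone, RPG2 had 27 higher and 24 lower and RPG3 37 and 33, and the medians over all genes became −0.69 and −0.46. Fits with library as a block used only the 2 libraries that held both classes. They gave 30 higher and 10 lower for RPG2, beside 2025 and 1586 of 13912 genes in all. For RPG3 they gave 29 and 10, beside 2253 and 1647 of 13059. The RPG4 counts rest on 2 sums.

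In RPG3 the NRF2, superoxide and NADPH list had 12 genes higher and 2 lower of 18, and the thioredoxin list 10 and 5 of 18. Blvrb was at 221 CPM in RPG3 and 21.9 in SSC1-4, and Tkt, a transketolase of the pentose phosphate pathway, at 236 and 58.9. Prdx3, the mitochondrial peroxiredoxin, was at 126 in RPG3 and 44.8 in SSC1-4. The glutathione list had 10 higher and 4 lower of 26, with Gsta4, a transferase that acts on lipid aldehydes, at 659 in RPG3 and 85.1 in SSC1-4 and Gstm5 at 56.7 and 282. Gsta4 was also the gene called higher in RPG1, at 155, with a log2 difference of 0.85. With library as a block that difference was 0.16 and was not called. The block fit used only the 2 libraries with RPG1 and SSC1-4 sums and called 4 genes in all. Slc7a11, the cystine importer, had 0 UMIs in RPG2 and 971 in SSC1-4, where its level ran from 0 to 3.94. The zinc list had 6 higher and 11 lower of 25 in RPG3, and Slc39a6 and Slc30a7, both zinc transporters, were at 23.0025 and 20.4 in RPG3 and at 125 and 60.9 in SSC1-4. Among the higher genes was Mt4, another metallothionein, which averaged 7.57 in RPG3 (0 to 18.3) and 4.696 in RPG2 (0 to 9.47), against 0.244 in SSC1-4 (0 to 4.51). Slc39a4 was also higher, at 70.9 in RPG3, 61.4 in RPG2 and 51.6 in RPG4, against 7.99 in SSC1-4. Ccs, which loads copper into Sod1, was at 295 in RPG2, 169 in RPG3 and 41.4 in SSC1-4, and Sephs2, which makes the selenium donor for selenoproteins such as Gpx4, was at 154 in RPG2, 224 in RPG3, 124 in RPG4 and 49.8 in SSC1-4.

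Over the 17 annotated clusters with sums and the 3 lines, each gene had its own order of levels, given here by means. Mt1 was highest in Fibroblast 2 (1851 ± 1041 CPM, n = 3), ESCs (1541) and gPSC-1 at passage 1 (1328), followed by SSC1 (1211 ± 495, n = 28) and gPSC-1 at passage 15 (1098), and lowest in RPG2 (265 ± 58.9, n = 3) and Neural 3 (247 ± 30.3, n = 2). Each line is 1 library and has no spread. Mt2 was highest in ESCs (1277) and lowest in Neural 3 (86.4 ± 33.6, n = 2), below RPG2 (216 ± 68.9, n = 3). ESCs and both gPSC-1 libraries thus stood at 934 to 1277 for Mt2, against 272 to 703 in RPG3 and 137 to 351 in RPG2 and RPG4. These 3 clusters held pluripotency markers as well. The lines also differ from the clusters in batch and medium, so cell state cannot be told apart from either. By their means, Slc30a1 was highest in RPG2 (51.2 ± 38.3, n = 3), Early-pluripotency 2 (50.3, 1 sum) and gPSC-1 at passage 15 (50.05), but 1 RPG2 sum of 8 cells stood at 95.1 and the other two at 24.8 and 33.6, and by its median, 33.6, RPG2 came after the other two. Slc30a1 was low in gPSC-1 at passage 1 (4.80) and Neural 3 (3.43 ± 1.30, n = 2). Sums called Early-pluripotency held SSC markers at 1460.4 to 1711 and pluripotency markers at 114 to 227, against 1466 to 2383 and 63.9 to 397 in SSC1-4.

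Atox1 had its highest means in RPG3 (709 ± 119, n = 8) and Fibroblast 2 (659, n = 3), whose medians were 738 and 739.7, and was lowest in Early-pluripotency 2 (196) and Meiotic 1 (272 ± 55.8, n = 6). Gpx4 had its highest means in RPG3 (548 ± 145), gPSC-1 at passage 1 (547) and Fibroblast 2 (504), with medians of 569 in RPG3 and 575 in Fibroblast 2, and was lowest in Early-pluripotency 2 (164). Txn1 was highest in gPSC-1 at passage 1 (918) and Neural 3 (912 ± 246, n = 2), then in RPG3 (795 ± 119) and ESCs (793), and lowest in Meiotic 2 (254 ± 26.5, n = 5). Prdx1 was highest in SSC1 (1658 ± 447, n = 28) and lowest in gPSC-1 at passage 15 (871). SSC1 cells also had a median of 149268 UMIs, against 281650 to 378770 in SSC2 to SSC4, and the highest mean percentage of mitochondrial counts of all clusters, 1.47%, and the part of either in the Prdx1 and Mt1 levels of SSC1 was not tested. Neighbours in these orders overlapped almost throughout. Only RPG2 and Neural 3 for Mt2, Neural 3 and RPG4 for Gpx4 and RPG4 and Early-pluripotency 1 for Txn1 had ranges that lay apart where each of the 2 had at least 2 sums.

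**Figure D3:**
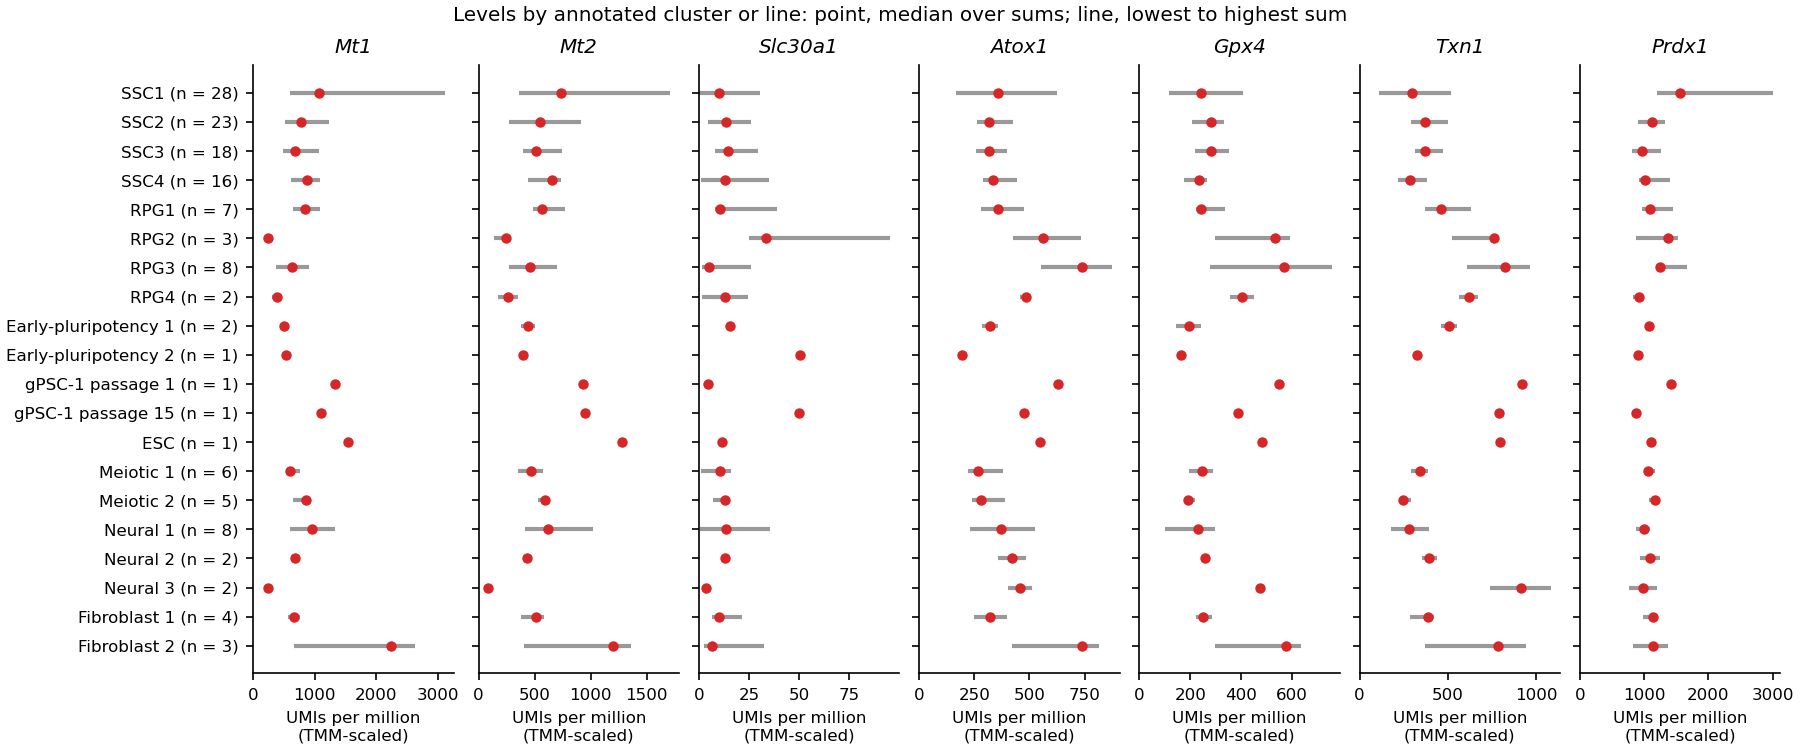
Level of each gene (horizontal axes, TMM-scaled CPM, from 0) in 17 annotated clusters and 3 lines (vertical axis). Points are medians over sums of 1 cluster in 1 library, and lines run from the lowest to the highest sum. RPG2 is low for Mt1 (median 249.5) and Mt2 (248) and is at a median of 33.6 for Slc30a1, and ESCs and gPSC-1 are high for Mt1, Mt2 and Txn1.

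The ratio of Mt1 to Mt2, in which any difference in capture between the transcripts takes part, is used here only to compare groups of sums. It averaged 1.44 ± 0.27 (SD, 1.01 to 3.61) over the 141 STRT-seq sums of clusters and lines, 1.62 ± 0.14 (1.38 to 1.801) over 13 Dazl-high sums and 1.44 ± 0.29 (0.971 to 1.85) over 8 Dazl-low sums. Over the 138 sums of clusters in the original condition, Pearson's r of log2 levels was 0.93, and over the 85 sums of SSC clusters alone 0.92. These points share libraries, depth and clusters, so the values are descriptions. Slc30a1 had r = −0.33 with Mt1 over the 138 sums and −0.52 over the SSC sums, and Prdx1 had 0.49 and 0.74. Gpx4 and Txn1 had r = 0.75, Atox1 and Gpx4 0.66 and Atox1 and Txn1 0.65 over the 138 sums, and 0.63, 0.25 and 0.18 over the SSC sums.

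**Figure D4:**
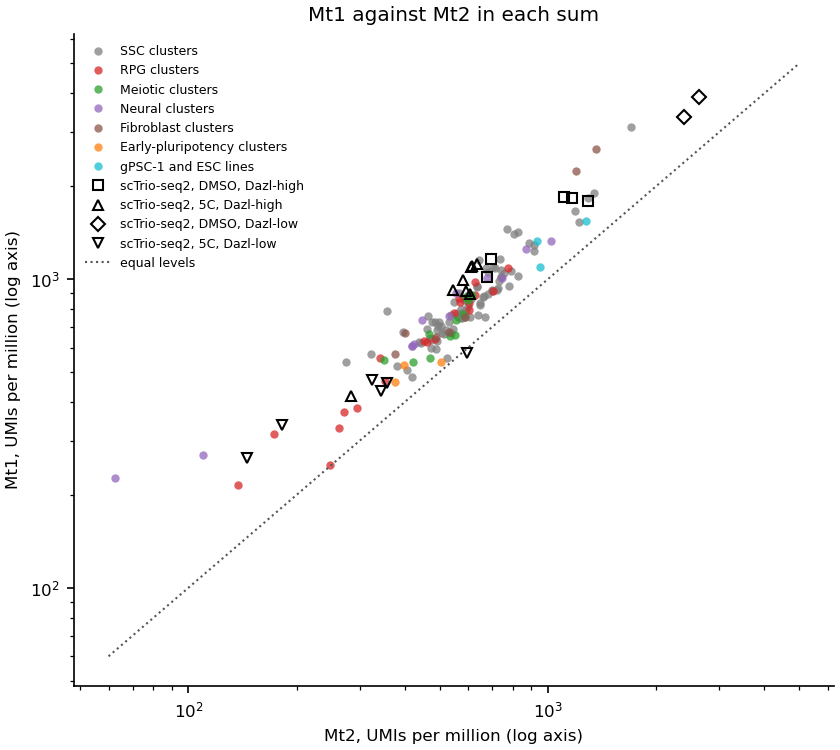
Mt1 (vertical axis) against Mt2 (horizontal axis), both in TMM-scaled CPM on log axes, with 1 point for each sum and a dotted line of equal levels. The points run along the line, with a mean ratio of Mt1 to Mt2 of 1.44 over the STRT-seq sums, from Neural 3 at the low end to the 2 Dazl-low DMSO sums at the high end.

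Among 9656 genes with a mean of at least 10 CPM over the same 138 sums, genes among the 3 nearest to each member by Pearson's r were as follows. After Mt2, Mt1 was nearest to Ctsd (0.73), a lysosomal protease, and Minos1 (0.70), and Mt2 to Mt1, Sdc4 (0.69) and Ctsd (0.68). Atox1 was nearest to Gpx1 (0.77), Rpl39 (0.75) and Chchd1 (0.74). Gpx4 was nearest to Myl6 (0.75), Txn1 (0.75) and Prelid1 (0.75), and Txn1 to Slc25a5 (0.82), the ADP/ATP carrier, and Wbp5 (0.82). Prdx1 was nearest to Hspe1 (0.93), a mitochondrial chaperonin, and Rpl4 (0.91), a ribosomal protein gene. Slc30a1 had no near neighbour, its highest being Gatad2a (0.47), Ttc27 (0.45) and Cenpv (0.45).

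Whether the genes changed with time in cells that stayed in SSC1 to SSC4 was tested over 36 libraries on 9 days from day 0 to day 27. No member passed an adjusted p below 0.05 by edgeR's quasi-likelihood test (0 of 7), against 1.69% of all genes called rising and 3.74% falling, and 2 of 7 had an unadjusted p below 0.05. DESeq2's Wald test also called 0 of 7, against 597 genes rising and 628 falling of 16779. Prdx1 came nearest, at −0.029 ± 0.0094 (SE) log2 units per day, which is −0.79 ± 0.25 over 27 days (adjusted p = 0.0558). It averaged 1240.4 ± 139 CPM on day 14 (n = 6), 1796 ± 406 on day 16 (n = 5), 1294 ± 145 on day 18 (n = 5), 1034.0 ± 84.9 on day 20 (n = 7) and 1045 ± 91.9 on day 27 (n = 3), so the daily means did not decline evenly. The 3 highest day 16 values, 2007, 2215 and 2027, came from sums of 8, 10 and 7 cells. With a filter of at least 10 cells per sum, which drops 3 of the 5 day 16 sums, its adjusted p was 0.0300, and within batch B1 it was 0.0701. Mt2 had a slope of −0.022 ± 0.0090 per day (adjusted p = 0.159) and Mt1 of −0.019 ± 0.0096 (adjusted p = 0.282), the latter going from 959 in the single day 0 library to 674 ± 126 on day 27 (n = 3). The fit pools the 4 SSC clusters. Within SSC1, SSC2 and SSC3 alone the slopes were above 0, at 0.028, 0.0097 and 0.0087 for Mt1 and 0.020, 0.0039 and 0.0030 for Mt2. None of these was called. Atox1, Gpx4, Txn1 and Slc30a1 had slopes of 0.0097 ± 0.0095, 0.0086 ± 0.0081, −0.0041 ± 0.010 and −0.0029 ± 0.024 per day, with adjusted p-values of 0.650, 0.635, 0.883 and 0.968. For Slc30a1 the error rested on 1 library, day 16 replicate 6 with 8 cells, without which the slope was 0.011 ± 0.0155 per day.

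Of the 97 pathway genes tested for the day, 1 rose (1.03%) and 3 fell (3.09%), near the share of all genes. Idh1, which makes cytosolic NADPH, rose by 0.035 ± 0.011 per day (adjusted p = 0.0471). Sod1, the copper and zinc superoxide dismutase (−0.030 ± 0.0074, adjusted p = 0.0147), Fth1, the ferritin heavy chain (−0.030 ± 0.0086, adjusted p = 0.0304), and Taldo1 (−0.022 ± 0.0062, adjusted p = 0.0257) fell. These calls were not firm: the rise was lost in 20 of 36 fits that left out 1 library. The falling genes were reduced to 1 without day 20 replicate 3, 5 or 6, day 23 replicate 3, 6 or 7 or day 27 replicate 4, and DESeq2's Wald test gave 5 rising and 3 falling. When libraries of 1 day and batch were summed first, edgeR called 0 genes of the table, with 1442 of 12150 at an unadjusted p below 0.05.

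**Figure D5:**
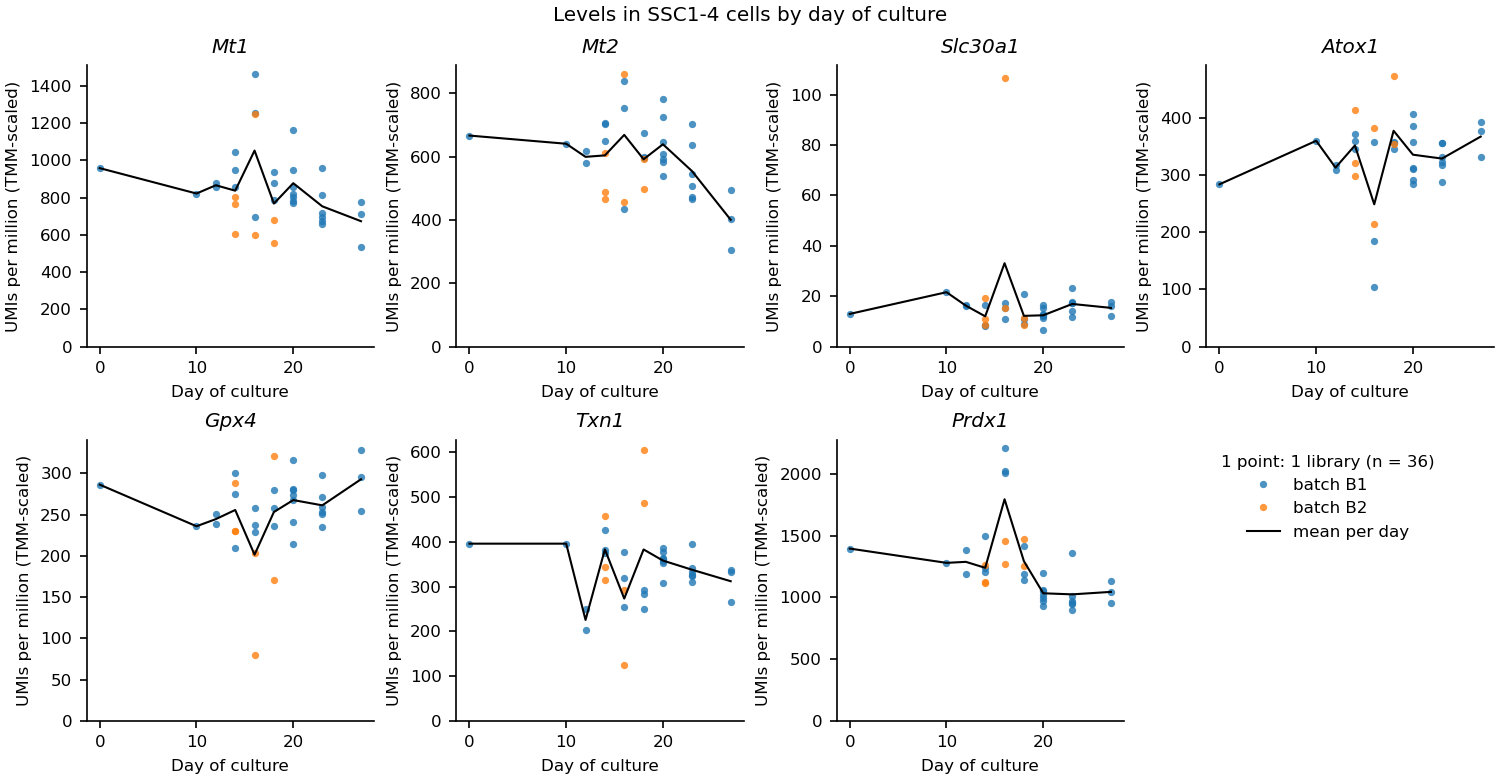
Level of each gene in SSC1 to SSC4 cells (vertical axis, TMM-scaled CPM, from 0) by day of culture (horizontal axis). Points are 36 libraries, coloured by batch, and the line joins the daily means. Prdx1 is highest on day 16 (mean 1796) and near 1034 on day 20, and Slc30a1 has 1 library at 107 on day 16.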

How the data were processed

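Modified STRT-seq and scTrio-seq2 gave single-cell RNA data. The counts deposited by the authors are UMIs for each gene in each cell that they kept, made from reads cleared of adapter and poly(A) sequence, aligned by STAR 2.7.2b to mm10 and given genes by featureCounts 2.0.0, with UMI-tools for barcodes and UMIs, and the annotation they deposited gives each STRT-seq cell a cluster, a batch and a percent of mitochondrial counts. Duplicate reads were collapsed by UMI, so counts are molecules, and their precision is limited by the cells per sum. Tables of DNA methylation and of other lines were not used here.

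Counts were summed per sample and Dazl class, or per library and cluster, with at least 5 cells, and scaled by TMM. Tests used edgeR 4.0.16 in R 4.3.3 (filterByExpr, glmQLFit, glmQLFTest, two-sided) with Benjamini-Hochberg adjustment over all genes tested, called below 0.05, and were tested on simulated data. DESeq2 1.42.0, other scalings, filters and splits, batch terms, blocks and left-out samples were alternatives. Members and lists were chosen with earlier results of these data known. Pathway genes named are, per list and comparison, at most 2 called in each direction with the largest log2 difference, of which only some are named in the cluster contrasts. Likeness is Pearson's r of log2(CPM + 1), and a few of the likest genes are not reported here.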

Additional observations from a re-analysis of the deposited data

Results flagged for a closer look

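In groups of 4 to 10 sums, 69 group and gene pairs were examined for a sum that lay far from the others by Dixon's criterion, which chance meets in about 1 of 20 groups, and 7 met it. In Dazl-high 5C cells, replicate 1 had Mt1 at 419 CPM against 896 to 1119 in the other 7 samples, and Mt2 at 283 against 545 to 636. Replicate 5 had Atox1 at 305 there, against 158 to 225. For RPG3, Slc30a1 was at 25.3 in day 12 replicate 2 (36 UMIs over 7 cells), against 1.47 to 9.06 in the other 7 libraries. The same gene was at 35.6 in the Neural 1 cells of day 20 replicate 7, against 0.677 to 16.8. Day 16 replicate 2 had the high value of Atox1 in both meiotic clusters, at 379.6 against 223 to 267 in Meiotic 1 and at 390.3 against 241 to 281 in Meiotic 2.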

How the results depend on the processing

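Counts of called genes were within 1.5 times of the main count under 49 of 72 alternative settings and 215 of 225 left-out samples, and the cause of the other shifts was not tested. In Dazl-high cells 2944 genes were called, against 1928 with all cells and no split. Replicate numbers did not pair the scTrio-seq2 samples: in 0 of 5 pairs was the correlation of deviations over 0.1 (−0.098 to 0.072), and 0 of 5 correlated best with their own number. The fit with a replicate block called 1210 genes and the fit of the same replicates 1 to 5 without the block 1823, and no paired analysis was possible in Dazl-low cells because fewer than 2 numbers are shared. In Dazl-low cells 1945 genes were called (795 higher, 1150 lower), against 4 with the split at 800, and scaling by total UMIs gave 1930 higher and 461 lower. Scaling by total UMIs moved the median log2 difference of all genes from −0.52 to −0.69 for RPG2 against SSC1-4 and from −0.25 to −0.46 for RPG3 against SSC1-4, and DESeq2 size factors moved it from −0.54 to −0.39 for RPG4 against SSC1-4. RPG1 had 923 called genes, and 1781 with at least 10 cells per sum, 340 with sums per batch and day, 4 with a library block, 451 in B1 and 36 in B2. RPG2 had 7210, and 3611 with a library block and 4633 in B2. RPG3 had 11371, and 7370 with sums per batch and day, 3900 with a library block and 4835 in B2. Each library block fit kept only the 2 libraries that held both classes, so it also had fewer sums. The day fit had 670 (208 rising, 462 falling), and 1425 with no filter, 1225 with DESeq2, 1360 with at least 10 cells, 0 with sums per batch and day, 0 in B2, 0, 7, 407 and 355 in SSC1, SSC2, SSC3 and SSC4 alone, and 438 rising and 234 falling when scaled by total UMIs. The 3 day fits with 0 calls by edgeR had 1442 (sums per batch and day), 135 (B2) and 700 (SSC1) genes at an unadjusted p below 0.05.

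Leaving out 1 sample gave 2320 to 3215 calls in Dazl-high cells, 578 (without DMSO replicate 2) to 2283 in Dazl-low cells, where leaving out DMSO replicate 1 gave 626, 557 (without day 18 replicate 3) to 993 for RPG1, 5547 to 7323 for RPG2, 10696 to 11412 for RPG3, 2921 (without day 20 replicate 2) to 5737 for RPG4, where leaving out day 20 replicate 1 gave 3126, and 321 (without day 23 replicate 7) to 959 for the day, where leaving out day 23 replicates 3 or 6 or day 27 replicate 4 gave 388, 368 and 442. Where 1 sample was left in a group (Dazl-low DMSO, RPG4), it was assumed to vary like the other groups of the fit. The directions of Mt1, Mt2, Atox1 and Prdx1 in both Dazl classes held under every alternative run. Among members, 453 values under other settings and 1561 with a sample left out kept their direction and side of the threshold or moved by less than the replicate spread. Named pathway genes kept direction and call in 833 values under other settings and 3142 with a sample left out, and lost the call with the same direction in 110 and 104. Slc30a1 had as few as 4 UMIs in a sum of Dazl-high cells, where counting error limits its level.

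Some member values changed sign. With a library block, which kept only the 2 libraries with both classes, RPG3 against SSC1-4 gave 0.017 for Mt1 and 0.11 for Mt2. With all cells and no Dazl split, Gpx4 and Txn1 were at −0.76 and −0.71, and Mt1 and Mt2 moved without a change of sign from −0.71 and −0.82 to −1.42 and −1.55. In batch B2 alone Mt2 moved from −0.36 to −0.89 for RPG3 against SSC1-4. Slopes per day reversed for Mt1 in SSC1, SSC2 and SSC3 alone (0.028, 0.0097 and 0.0087), for Mt2 in B2 (0.022) and SSC1 to SSC3 alone (0.020, 0.0039 and 0.0030), for Prdx1 in B2 (0.056) and SSC1 (0.016), for Gpx4 in B2 (−0.026), for Txn1 by total UMIs (0.0048), in B2 (0.11) and in SSC4 (0.020), and for Slc30a1 by total UMIs (0.0074), with at least 10 cells (0.0089), with batch as a covariate (0.0077), with sums per batch and day (0.0027), in B1 (0.0091), in B2 (0.082) and in SSC1, SSC2 and SSC4 alone (0.012, 0.0025 and 0.17, the last with an adjusted p of 0.0432 by edgeR). Left-out libraries moved the Slc30a1 slope from −0.012 to 0.011 and that of Txn1 from −0.0081 to 0.00052. Among pathway genes, slopes reversed for Sod1 and Fth1 in B2 (0.057 and 0.056) and SSC1 (0.0042 and 0.0049) and for Taldo1 in B2 (0.043). Prdx1 passed the threshold with no filter (adjusted p = 0.0378, edgeR), at least 10 cells (0.0300) and without day 0 (0.0247), and with 1 library left out in 4 cases: day 14 replicate 5 (0.04996), day 16 replicate 2 (0.0366), day 18 replicate 4 (0.0482) and day 23 replicate 4 (0.0457).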
